A study of Mus musculus with 12 samples.

Results

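Calcineurin, NFAT and CaMKII carry calcium signals to the nucleus of the heart muscle cell. The 10 genes described here are the rows of a mouse ventricle read count table whose Ensembl IDs map to Rcan1, Rcan2, Ppp3ca, Ppp3cb, Ppp3r1, Nfatc1, Nfatc2, Nfatc3, Nfatc4 and Camk2d, out of 21959 gene IDs. All 10 had an ID and all 10 passed the filter on low counts that left 12384 genes for testing. The samples were heart ventricles of 6 Vps13c-cKO mice, in which the lipid transfer gene Vps13c was knocked out, and of 6 WT mice. All mice were 7 weeks old, male and fed chow. The series title calls the knockout cardiac-specific, and the sources used here give neither the promoter or Cre line behind it nor whether the WT mice carried one.

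Calcineurin is a phosphatase that calcium and calmodulin switch on. It has a catalytic A subunit (Ppp3ca or Ppp3cb in the heart) and a calcium-binding B subunit (Ppp3r1), and it removes phosphate from the transcription factors NFATc1 to NFATc4 (Nfatc1 to Nfatc4), which then enter the nucleus. RCAN1 and RCAN2 bind calcineurin and restrain it, and a short form of the Rcan1 transcript is itself switched on by NFAT, so that Rcan1 RNA is widely read as a gauge of calcineurin activity. CaMKII-delta, encoded by Camk2d, is the main calcium/calmodulin-dependent kinase II of heart muscle. Both arms are known for their part in cardiac hypertrophy in mice. Activity of the phosphatase and the kinase is set on the protein, so read counts measure transcript supply and not activity.

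Rcan1 has 2 annotated starts in the RefSeq promoter table (build GRCm38.p6, chromosome 16, minus strand), 66.1 kb apart. Their windows are shown because Rcan1 was the gene of the 10 that passed the test and because NFAT acts at one of them. Each window runs from 250 bases before the start to 50 bases after it, 5' to 3' on the gene's strand, and capitals mark each GGAAA or its reverse complement TTTCC, the core that NFAT proteins recognise.
Rcan1 upstream start, chr16:92466120-92466419: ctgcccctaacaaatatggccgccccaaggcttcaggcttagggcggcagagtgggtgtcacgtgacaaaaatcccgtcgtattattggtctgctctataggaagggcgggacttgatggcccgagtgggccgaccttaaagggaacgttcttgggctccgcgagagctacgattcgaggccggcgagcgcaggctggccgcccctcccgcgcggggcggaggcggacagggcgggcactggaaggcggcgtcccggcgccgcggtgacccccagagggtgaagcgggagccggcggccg
Rcan1 downstream start, chr16:92400029-92400328: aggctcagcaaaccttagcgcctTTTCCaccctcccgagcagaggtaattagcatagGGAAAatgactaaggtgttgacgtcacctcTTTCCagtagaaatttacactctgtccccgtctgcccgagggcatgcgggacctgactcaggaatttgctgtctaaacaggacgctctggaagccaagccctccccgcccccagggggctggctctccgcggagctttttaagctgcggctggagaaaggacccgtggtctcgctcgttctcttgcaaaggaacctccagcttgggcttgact
The window at the downstream start held 3 matches to the core, whose first letters lie 227, 193 and 163 bases before the start, and the window at the upstream start held 0. Of 32851 RefSeq windows of the same length, 61.3% held at least 1 match on either strand and 9.42% held 3 or more, so matches of this kind are common. Other motifs were looked at after the windows had been seen. The downstream window also held TGACGTCA, found in 1.79% of windows, and TGACTCA, found in 5.2%, and neither overlaps a GGAAA match. The upstream window held the E-box CACGTG, found in 7.15%. A match describes the letters of the window and no binding was measured. The table has 13 windows for 8 of the 10 genes, and 8 of the 13 held GGAAA. The most matches, 4, lay at Ppp3cb. The deposited counts are per gene, so reads from the 2 starts of Rcan1 are summed in every value below.

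Libraries held 12484523 to 14188716 gene counts in Vps13c-cKO and 13348018 to 15562942 in WT (two-sided exact permutation p = 0.145). Mitochondrially encoded genes took 31.2% ± 0.606 of counts in Vps13c-cKO and 30.1% ± 0.761 in WT (SD, n = 6 each, exact permutation p = 0.0238). Vps13c had 16.3 to 20.3 CPM (read counts relative to library size, which was scaled by the TMM method) in the 6 Vps13c-cKO mice and 54.6 to 68.6 CPM in the 6 WT mice, so it was low in every knockout library. The library labelled WT mouse 4 stood apart. It held 405 reads of the atrial light chain gene Myl7, against 0 to 5 in the other 11 libraries, 433 of Myl4, against 8 to 31, and 114 of Sln, against 0 to 1. These 3 genes mark atrial muscle. Without this mouse Rcan1 was again the 1 of the 10 genes called. Log2 fold changes without it are given below for Rcan1, Ppp3ca, Ppp3cb, Ppp3r1, Nfatc2 and Nfatc4.

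In Vps13c-cKO ventricles 1 of the 10 genes was higher and 0 were lower. Rcan1 rose 1.23-fold (95% interval 1.08 to 1.39), and the calcineurin subunits, Rcan2, the NFAT genes and Camk2d did not pass the test. The test was edgeR's quasi-likelihood F test, two-sided, with p adjusted by Benjamini-Hochberg over the 12384 genes and a threshold of 0.05. A positive log2 fold change means higher in Vps13c-cKO. By the same rule 10.7% of all tested genes were called, 5.65% higher and 5.10% lower, so 1 call in 10 genes is near the background. At an unadjusted p under 0.05 there were 1 higher gene and 2 lower ones among the 10, beside 23.8% of all tested genes. DESeq2 called 0 higher and 0 lower, and limma-voom called 1 higher and 0 lower. The median size of the log2 fold change, whatever its sign, was 0.081 over the 10 genes and 0.090 over all tested genes. The groups overlapped for each of the 10 genes, while 4.93% of all tested genes had groups that did not overlap.

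**Figure D1:**
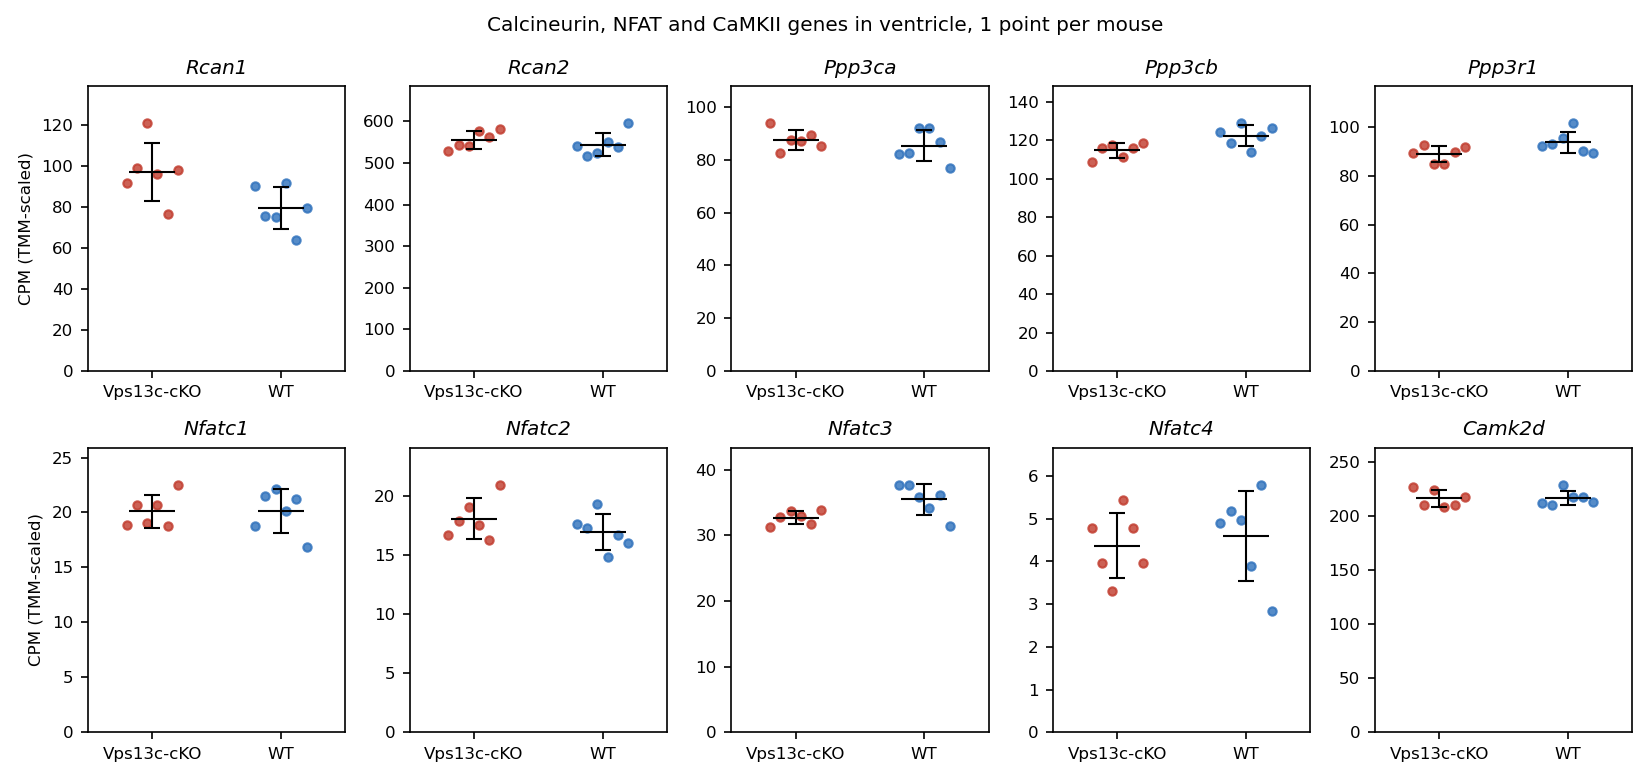
CPM on TMM-scaled library sizes (vertical axes, each from 0) of the 10 genes in 6 Vps13c-cKO mice (left, red) and 6 WT mice (right, blue), 1 point per mouse, with the mean and SD in black. For Rcan1, 4 of the 6 Vps13c-cKO mice lie above the highest WT mouse at 91.8 CPM, and the groups overlap in all 10 panels.

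The catalytic subunits of calcineurin stayed close to their WT levels. Ppp3cb, which encodes the A-beta catalytic subunit, had 109 CPM in the lowest Vps13c-cKO mouse, a median of 116 and a highest value of 119, against 114, 123 and 129 CPM in WT mice. All 6 Vps13c-cKO mice lay below the WT median, and 2 of them below the lowest WT mouse. The log2 fold change was -0.09 ± 0.04 (SE, adjusted p = 0.132), with a 95% interval of the fold from 0.887 to 0.991 that takes no account of the other genes tested. Without WT mouse 4, the lowest of the WT values, the log2 fold change of Ppp3cb was -0.11 ± 0.04 and its adjusted p was 0.0573, and 5 of the 6 Vps13c-cKO mice lay below the remaining WT mice. Ppp3ca, which encodes the A-alpha catalytic subunit, had a lowest, median and highest value of 82.6, 87.4 and 93.9 CPM in Vps13c-cKO and of 76.9, 84.5 and 92.2 CPM in WT. On the log2 scale Ppp3ca differed by 0.04 ± 0.05 (SE, adjusted p = 0.697, fold 0.959 to 1.10), and 0.06 ± 0.05 without WT mouse 4 (adjusted p = 0.491).

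The regulatory B subunit followed the same small range. Ppp3r1 had 84.8, 89.7 and 92.7 CPM (lowest, median, highest) in Vps13c-cKO, against 89.5, 92.6 and 102 CPM in WT. The groups overlapped, as 3 of the 6 Vps13c-cKO mice lay below the lowest WT mouse and the other 3 lay within the WT range. On the log2 scale the difference was -0.08 ± 0.04 (SE, adjusted p = 0.263, fold 0.895 to 1.01). Without WT mouse 4, the highest WT value, the difference was -0.05 ± 0.04 (adjusted p = 0.460). By the GENCODE M21 annotation 462 of the 3228 exon bases of Ppp3r1 are shared with Wdr92 on the same strand, so its count depends on how such reads were assigned.

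Of the 2 calcineurin inhibitors, Rcan1 rose and Rcan2 did not pass the test. Rcan1 had a lowest, median and highest value of 76.7, 97.1 and 121 CPM in Vps13c-cKO, against 64.0, 77.7 and 91.8 CPM in WT. Vps13c-cKO mice 2, 3, 4 and 6 lay above every WT mouse, mouse 1 was level with the highest WT mouse and mouse 5 lay within the WT range. Mean levels of Rcan1 were 97.2 ± 14.3 CPM in Vps13c-cKO and 79.4 ± 10.3 CPM in WT (SD, n = 6 each), which differ by 0.29 ± 0.09 on the log2 scale (SE, adjusted p = 0.0312). Among all tested genes ordered by p, Rcan1 stood at place 1091. Rcan2, the paralog and the more abundant of the pair in reads, had 529, 553 and 582 CPM in Vps13c-cKO, against 516, 540 and 596 CPM in WT. Its log2 fold change was 0.03 ± 0.04 (SE, adjusted p = 0.692), with a 95% interval of its fold from 0.968 to 1.08. Whether the 2 genes differ in their response was not tested.

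The Rcan1 call sat close to the threshold. It ended when any 1 of 8 mice was left out. Without Vps13c-cKO mouse 2, 3, 4 or 6 the adjusted p was 0.0578, 0.0862, 0.0560 and 0.0515 in that order, with log2 fold changes of 0.29, 0.22, 0.29 and 0.29. Without WT mouse 2, 3, 5 or 6 it was 0.0691, 0.0662, 0.0683 and 0.0530, with log2 fold changes of 0.28, 0.28, 0.24 and 0.29. It also missed the threshold by DESeq2 (adjusted p = 0.101) and by edgeR with robust empirical Bayes (adjusted p = 0.142). Without WT mouse 4, the highest WT value, the log2 fold change was 0.34 ± 0.09 (SE, adjusted p = 0.0158), and 5 of 6 Vps13c-cKO mice lay above the 5 remaining WT mice. The direction was the same in all 21 alternatives, with log2 fold changes from 0.22 to 0.35.

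**Figure D2:**
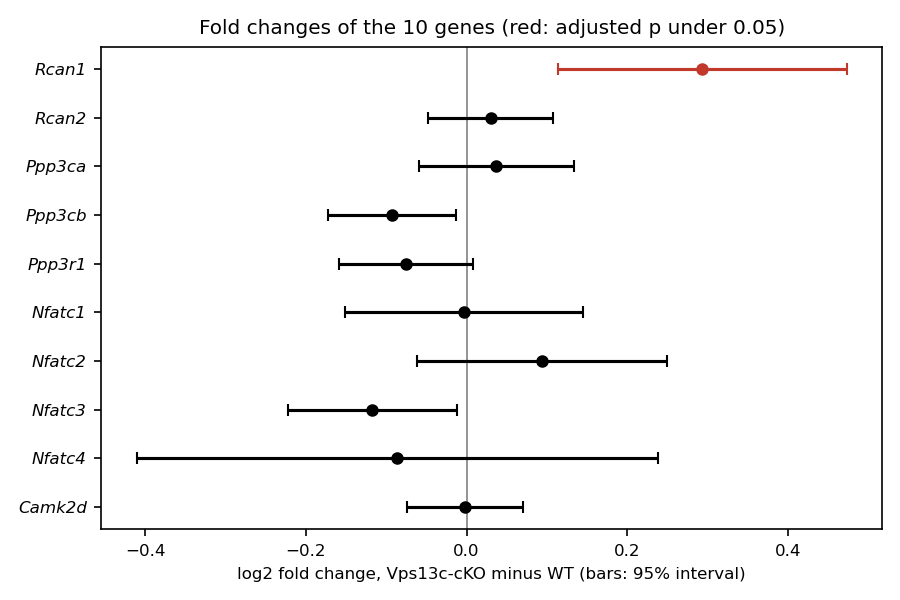
Log2 fold change (Vps13c-cKO minus WT, horizontal axis) of the 10 genes, points with 95% intervals from the edgeR fit of 6 against 6 mice, the called gene in red. Rcan1 at 0.29 lies farthest from 0, and the widest interval, from -0.41 to 0.24, is that of Nfatc4.

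Rcan1 was also one of the most variable of the 10 genes between mice of one genotype. Its coefficient of variation was 14.7% in Vps13c-cKO and 13.0% in WT. That of Rcan2 was 3.86% in Vps13c-cKO and 5.16% in WT, and that of Camk2d 3.74% in Vps13c-cKO and 3.12% in WT. Of the 10, Nfatc4 varied more, at 17.5% in Vps13c-cKO and 23.0% in WT, on 37 to 91 reads per mouse, whereas Rcan1 had 1005 to 1714 reads per mouse. The spread of Rcan1 within a genotype was thus wider than that of 8 of the other 9 genes in both genotypes.

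None of the 4 NFAT genes passed the test. Nfatc3 had 31.3, 32.9 and 33.8 CPM (lowest, median, highest) in Vps13c-cKO, against 31.4, 36.0 and 37.7 CPM in WT. All 6 Vps13c-cKO values of Nfatc3 lay below the WT median, and 1 lay below WT mouse 6, which held the low end of the WT range. The log2 fold change was -0.12 ± 0.05 (SE, adjusted p = 0.154, fold 0.857 to 0.992). Without WT mouse 6 it was -0.15, with an adjusted p of 0.0494. By GENCODE M21, 219 of the 11726 exon bases of Nfatc3 overlap Esrp2 on the opposite strand, and reads there cannot be told apart without strand.

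Nfatc1, known for heart valve and endocardial development, had 18.8, 19.9 and 22.5 CPM in Vps13c-cKO, against 16.9, 20.7 and 22.1 CPM in WT. The 2 ranges nearly coincide, and the log2 fold change was -0.0032 ± 0.07 (SE, adjusted p = 0.987, fold 0.901 to 1.11). Nfatc2, best known from T cells, had 16.3, 17.7 and 21.0 CPM in Vps13c-cKO, against 14.8, 17.0 and 19.3 CPM in WT. Vps13c-cKO mouse 6 was the one value above the WT range, and the log2 fold change was 0.09 ± 0.07 (SE, adjusted p = 0.495, fold 0.958 to 1.19). It was 0.06 without WT mouse 4, the lowest WT value, and 0.04 without Vps13c-cKO mouse 6, again not past the test. Nfatc4 had the fewest reads, with 3.32, 4.37 and 5.44 CPM in Vps13c-cKO, against 2.84, 4.93 and 5.79 CPM in WT. Every Vps13c-cKO value lay inside the WT range, with a difference of -0.09 ± 0.16 on the log2 scale (SE, adjusted p = 0.801, fold 0.752 to 1.18), so a change within that interval was not detectable for Nfatc4 in these mice. Without WT mouse 4 it was -0.13 ± 0.16 (adjusted p = 0.690).

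The kinase gene Camk2d was level between the groups with the narrowest interval of the 10 genes. It had 208, 214 and 227 CPM (lowest, median, highest) in Vps13c-cKO, against 210, 215 and 229 CPM in WT. The ranges almost coincide, and means were 216 ± 8.09 CPM in Vps13c-cKO and 216 ± 6.74 CPM in WT (SD, n = 6 each). The log2 fold change was -0.0018 ± 0.03 (SE, adjusted p = 0.985), and its interval ran from 0.950-fold to 1.05-fold. Splice forms of Camk2d, which place the kinase in the nucleus or the cytosol, are summed in the count.

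Ratios of read counts within one mouse do not depend on the scaling of libraries. Rcan1 reads over the summed reads of Ppp3ca and Ppp3cb came to 0.480 ± 0.0701 in Vps13c-cKO and 0.383 ± 0.0541 in WT (SD, n = 6 each). Rcan2 reads over Rcan1 reads came to 5.83 ± 0.924 in Vps13c-cKO and 6.95 ± 0.922 in WT. These ratios follow from the higher Rcan1 reads and are no second observation of them. Ppp3cb over Ppp3ca came to 1.31 ± 0.0907 in Vps13c-cKO and 1.44 ± 0.134 in WT. Ppp3r1 over the summed reads of Ppp3ca and Ppp3cb came to 0.439 ± 0.0182 in Vps13c-cKO and 0.451 ± 0.0235 in WT. The groups overlapped for each of the 4 ratios, which were not tested.

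**Figure D3:**
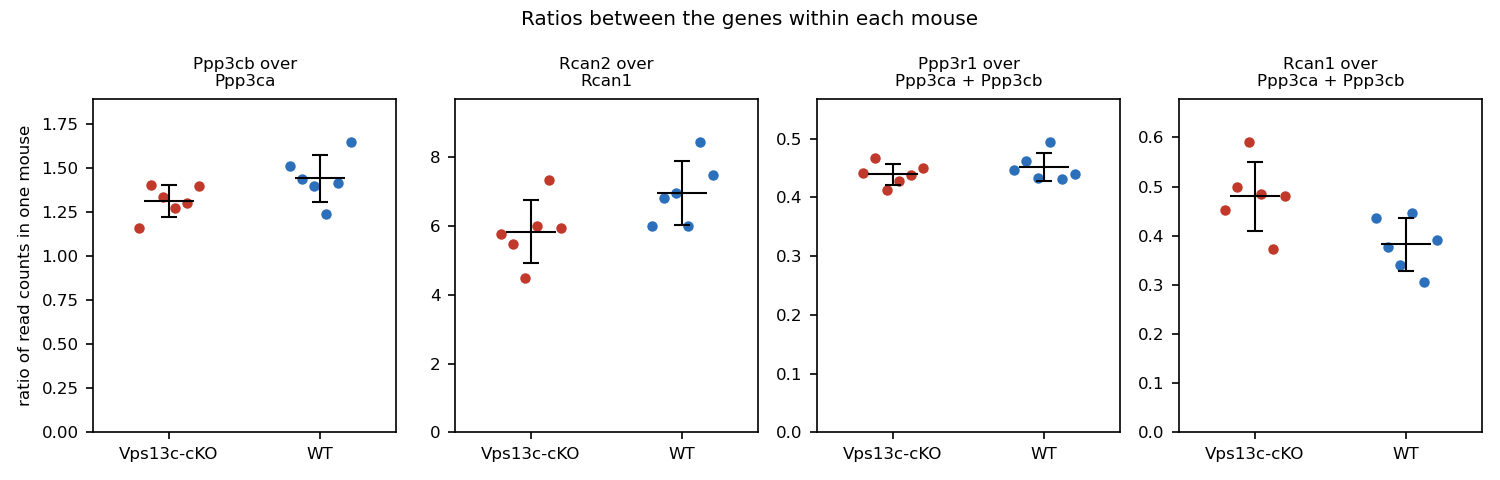
Ratios of read counts between genes within each mouse (vertical axes, each from 0), 6 Vps13c-cKO mice (left, red) and 6 WT mice (right, blue), with the mean and SD in black. The ratio of Rcan1 to Ppp3ca plus Ppp3cb averages 0.480 in Vps13c-cKO and 0.383 in WT, and the groups overlap in all 4 panels.

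Per kilobase of annotated exon, Rcan2 stood first of the 10 genes, at 127 ± 4.91 CPM per kb in Vps13c-cKO and 125 ± 6.42 CPM per kb in WT (SD, n = 6 each). Rcan1 followed at 31.5 ± 4.63 CPM per kb in Vps13c-cKO and 25.7 ± 3.35 in WT, next to Ppp3r1 at 27.6 ± 1.05 in Vps13c-cKO and 29.0 ± 1.38 in WT. By these lengths the means ± SD of the 2 overlapped in both genotypes. Below them came Ppp3cb at 13.0 ± 0.437 in Vps13c-cKO and 13.9 ± 0.618 in WT, Camk2d at 9.60 ± 0.360 in Vps13c-cKO and 9.61 ± 0.300 in WT, and Ppp3ca at 8.78 ± 0.384 in Vps13c-cKO and 8.56 ± 0.604 in WT. The NFAT genes were the lowest, from Nfatc3 at 2.79 ± 0.0875 CPM per kb in Vps13c-cKO and 3.03 ± 0.203 in WT, through Nfatc1 and Nfatc2, to Nfatc4 at 0.752 ± 0.132 in Vps13c-cKO and 0.791 ± 0.182 in WT. The means ± SD of Nfatc3 and Nfatc1 overlapped in both genotypes, with Nfatc1 at 2.69 ± 0.199 in Vps13c-cKO and 2.69 ± 0.266 in WT, although Nfatc3 was the higher of the pair in each of the 6 WT mice. The lengths are unions of all exons in GENCODE M21, 22493 bases for Camk2d, and with the longest single transcript instead, 5524 bases, Camk2d moved to place 3 in Vps13c-cKO and place 2 in WT, while Rcan2 stayed first and the 4 NFAT genes stayed last. By that length Rcan1 stood above Ppp3r1 in both genotypes, at 41.8 against 31.1 CPM per kb in Vps13c-cKO and 34.2 against 32.8 in WT, and Nfatc3 above Nfatc1, at 5.47 against 4.19 in Vps13c-cKO and 5.93 against 4.19 in WT. The order of Rcan1 and Ppp3r1 in WT thus depends on the length used, while Nfatc3 stood above Nfatc1 by both.

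Other genes of the pathway were followed as 7 lists of regulators, upstream receptors and reported responders, 96 tested genes in all. Of these, 9 were higher and 15 lower in Vps13c-cKO, or 25%, beside 10.7% of all tested genes. The lists were drawn up with earlier results of these mice known, Nppa, Nppb and Acta1 among them, so the share is a description. Without WT mouse 4 the counts over the lists were again 9 and 15, and over the 10 genes 1 was called.

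Among 13 tested subunits and regulators of calcineurin, 1 was higher and 1 lower, or 15.4%, beside 10.7% of all tested genes. Their median log2 fold change was 0.03. Myoz2, which encodes calsarcin-1 and tethers calcineurin to the Z-disc, rose by 0.19 ± 0.04 on the log2 scale (SE, adjusted p = 0.00149), with 1075 ± 21.3 CPM in Vps13c-cKO and 944 ± 56.4 CPM in WT (SD, n = 6 each). Its groups did not overlap. Fhl2, a LIM protein that binds calcineurin, fell by 0.24 ± 0.04 (SE, adjusted p = 0.000870). The most abundant regulators that did not pass were the anchoring protein genes Akap6, at a log2 fold change of -0.05 ± 0.05, and Akap1, at -0.10 ± 0.04, and the immunophilin gene Fkbp1a, at 0.02 ± 0.04. The catalytic subunit gene Ppp3cc had means of 23.6 CPM in Vps13c-cKO and 21.6 CPM in WT. It differed by 0.13 ± 0.06 on the log2 scale (SE, adjusted p = 0.193).

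Among 16 tested kinases and partners of NFAT, 0 were higher and 3 lower by edgeR, or 18.8%, beside 10.7% of all tested genes. Their median log2 fold change was -0.08. At an unadjusted p under 0.05 there were 0 higher and 5 lower, beside 23.8% of all tested genes in either direction. DESeq2 and limma-voom each called 0 higher and 3 lower. Homer1 and Homer2, scaffold proteins, fell by 0.23 ± 0.06 and 0.13 ± 0.04 on the log2 scale (SE, adjusted p = 0.0194 and 0.0461), and the p38 kinase gene Mapk14 fell by 0.15 ± 0.04 (SE, adjusted p = 0.0280). Of the kinases that prime and phosphorylate NFAT for export, Csnk1a1 was at 0.0034 ± 0.03 and Gsk3b at -0.11 ± 0.04, and the NFAT partner Gata4 at -0.10 ± 0.06, none past the test.

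Among 11 tested calmodulin and CaM kinase genes, 1 was higher and 1 lower, or 18.2%, beside 10.7% of all tested genes. Their median log2 fold change was -0.0065. Camk2g, which encodes another CaMKII isoform of the heart, fell by 0.19 ± 0.05 on the log2 scale (SE, adjusted p = 0.0100), with 49.8 ± 2.54 CPM in Vps13c-cKO and 56.8 ± 3.25 CPM in WT (SD, n = 6 each) and no overlap of the groups. Camk1d, a CaM kinase I gene, rose by 0.63 ± 0.12 (SE, adjusted p = 0.00165) at low levels, 6.32 ± 0.687 CPM in Vps13c-cKO and 4.09 ± 0.741 CPM in WT. The calmodulin genes Calm2 and Calm3 did not pass, at -0.0065 ± 0.04 and -0.07 ± 0.03.

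CaMKII and protein kinase D phosphorylate class IIa histone deacetylases, which hold MEF2 factors in check. Of 14 tested genes on that list 1 was higher and 2 lower, or 21.4%, beside 10.7% of all tested genes. Their median log2 fold change was -0.07. Prkd1, the gene of protein kinase D1, fell by 0.55 ± 0.11 on the log2 scale (SE, adjusted p = 0.00162), with 6.63 to 10.8 CPM in Vps13c-cKO and 11.4 to 15.3 CPM in WT, and the groups did not overlap. The deacetylase gene Hdac5 fell by 0.19 ± 0.05 (SE, adjusted p = 0.0134), and the coactivator gene Camta2 rose by 0.15 ± 0.04 (SE, adjusted p = 0.0252). Mef2a, Mef2d and Camta1 did not pass, at -0.11 ± 0.04, 0.0073 ± 0.05 and 0.06 ± 0.03.

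Of 23 tested receptors, Gq effectors and calcium channels upstream of calcineurin, 1 was higher and 7 lower. That is 34.8%, beside 10.7% of all tested genes, on a list drawn up with earlier results known. Their median log2 fold change was -0.09. The alpha-1 adrenergic receptor genes fell, Adra1a by 0.57 ± 0.10 and Adra1b by 0.39 ± 0.08 on the log2 scale (SE, adjusted p = 0.000526 and 0.00343). Adra1a had 15.3 ± 2.68 CPM in Vps13c-cKO and 22.7 ± 2.59 CPM in WT (SD, n = 6 each), without overlap. Cacna1c, the pore of the L-type calcium channel, fell by 0.20 ± 0.05, the inositol trisphosphate receptor gene Itpr2 by 0.30 ± 0.07 and the phospholipase gene Plcb4 by 0.22 ± 0.05 (SE, adjusted p = 0.00684, 0.00796 and 0.00944). Cacna1h, a T-type calcium channel gene, rose by 0.74 ± 0.11 (SE, adjusted p = 0.000170), with 9.25 to 13.5 CPM in Vps13c-cKO and 4.98 to 7.88 CPM in WT. The inositol trisphosphate receptor gene Itpr1, the protein kinase C gene Prkca and the phospholipase gene Plce1 did not pass, at 0.06 ± 0.05, -0.05 ± 0.05 and 0.02 ± 0.05.

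Among 13 tested genes reported to respond to calcineurin and NFAT in heart or muscle, 6 were higher and 1 lower. That is 53.8%, beside 10.7% of all tested genes, on a list drawn up with earlier results known. Their median log2 fold change was 0.19. The steepest were the natriuretic peptide gene Nppa at 2.12 ± 0.21, skeletal actin Acta1 at 1.82 ± 0.14 and Nppb at 1.16 ± 0.09 (log2 fold change ± SE). Xirp2 rose by 0.22 ± 0.06, Adss1 by 0.19 ± 0.05 and Myoz2 as given above, while the endothelin gene Edn1 fell by 0.61 ± 0.16. Myh7, Xirp1 and Lmcd1 did not pass, at 0.12 ± 0.07, 0.09 ± 0.04 and 0.03 ± 0.05. These genes also answer to other pathways. On the list of GATA, SRF and other hypertrophy factors 0 of 10 passed by edgeR, by DESeq2 or by limma-voom. By edgeR 10.7% of all tested genes passed. At an unadjusted p under 0.05 there were 3 higher and 2 lower, beside 23.8% of all tested genes in either direction. The most abundant on that list were Tead1 at -0.13 ± 0.05, Foxo3 at -0.12 ± 0.08 and Gata6 at -0.13 ± 0.06.

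**Figure D4:**
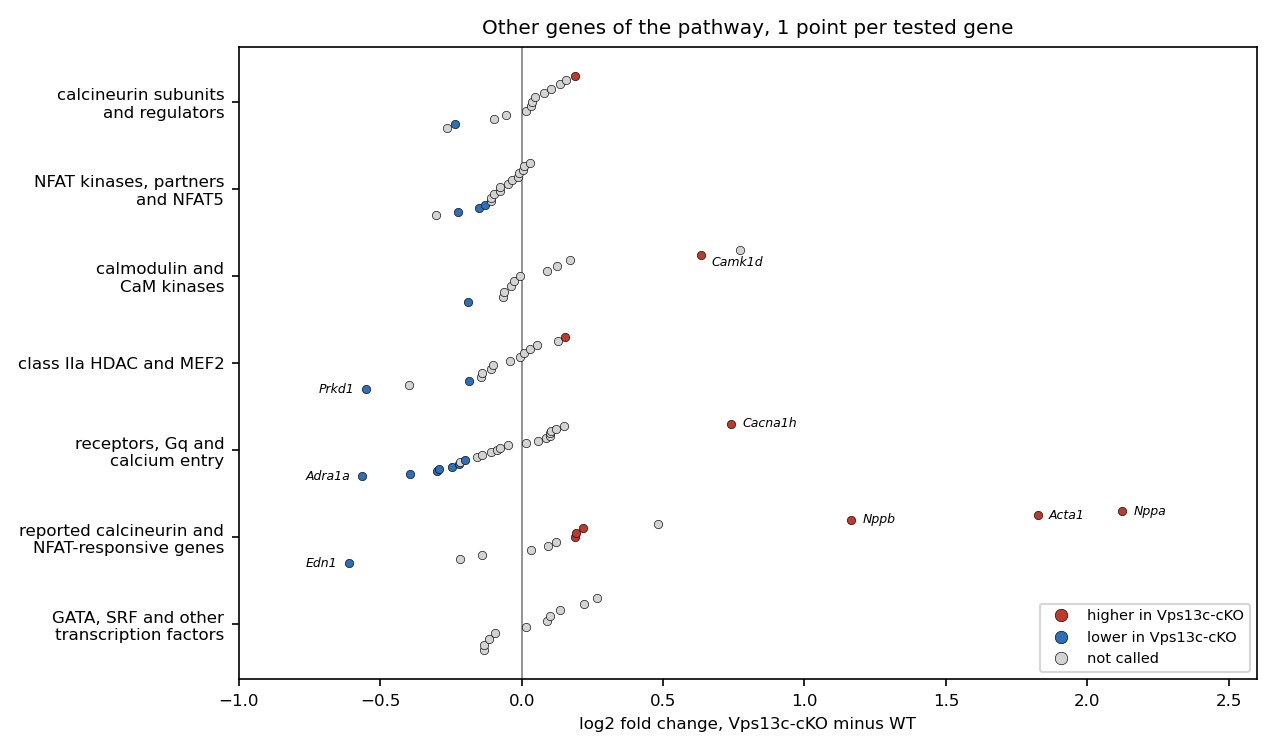
Log2 fold change (Vps13c-cKO minus WT, horizontal axis) of each tested gene on 7 lists around calcineurin, NFAT and CaMKII, 1 point per gene, spread vertically within a list by value. Of 96 genes 9 are higher (red) and 15 lower (blue), and 3 of the responders, Nppb, Acta1 and Nppa, lie beyond 1.

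Several measures moved with genotype beside Rcan1. The marker counts below stand beside 5.65% of all tested genes called higher and 5.10% called lower. In bulk ventricle, fewer cells of a type and less RNA per cell cannot be told apart. Of 12 fibroblast markers 9 were higher, and the 12 summed to 2354 to 2600.0 CPM in Vps13c-cKO and 2034 to 2280 CPM in WT. The other 3, Pdgfra, Dcn and Tcf21, were not called, at log2 fold changes of 0.04 ± 0.05, 0.07 ± 0.04 and 0.25 ± 0.13 (SE). Gsn, 1 of the 9, made the largest part of the sum, at means of 1031 CPM in Vps13c-cKO and 890 CPM in WT. Of 12 endothelial markers 2 were lower, or 16.7%, beside 10.7% of all tested genes. The other 10 were not called, and the 12 summed to 1607 to 1805 CPM in Vps13c-cKO and 1706 to 1884 CPM in WT. Of 10 macrophage markers 4 were higher and the other 6 were not called, at 326 to 382 CPM in Vps13c-cKO and 257 to 350.3 CPM in WT. Of 12 cardiomyocyte markers 1 was higher and 4 lower, at 71916 to 78897 CPM in Vps13c-cKO and 75543 to 83060 CPM in WT. Of 11 tested smooth muscle and pericyte markers 2 were higher and 3 lower, at 3053 to 3165 CPM in Vps13c-cKO and 2973 to 3197 CPM in WT. Much of that sum was Des, 1 of the 2 higher, at means of 1390 CPM in Vps13c-cKO and 1160 CPM in WT. The sum therefore says little about the other markers on this list. Myh11 was the other higher one, at a log2 fold change of 0.34 ± 0.10 (SE). The 3 lower ones were Rgs5 at -0.11 ± 0.03, Smtn at -0.18 ± 0.04 and Pdgfrb at -0.19 ± 0.05. No marker on these 5 lists was at 0 in all libraries. Lymphocyte markers were near the floor, at 3.52 to 4.77 CPM in sum in Vps13c-cKO and 2.30 to 3.90 CPM in WT, and 1 of the 10 had enough reads to be tested and was not called. Their part in the values of the 10 genes was not tested.

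Rcan1 RNA is known to vary over the day in the mouse heart and to answer rapidly to stimuli, and the sources used here give no time of collection. Of 14 core clock genes, 2 were higher and 3 lower, or 35.7%, beside 10.7% of all tested genes. Per2 rose by 0.56 ± 0.14 on the log2 scale and Ciart by 0.76 ± 0.21, while Arntl fell by 0.84 ± 0.18 and Clock by 0.25 ± 0.05 (SE, adjusted p = 0.0114, 0.0191, 0.00343 and 0.00264). Nr1d1, whose exons overlap those of Thra on the opposite strand, fell by 0.29 ± 0.08 (SE, adjusted p = 0.0158). Nr1d2, Tef and Per1 did not pass, at 0.07 ± 0.07, 0.10 ± 0.08 and 0.21 ± 0.07. Of 15 tested immediate early genes 13.3% passed, near the 10.7% of all tested genes. Egr3 rose by 1.49 ± 0.32, on 2 to 24 reads per mouse, and Nr4a3 fell by 1.40 ± 0.19 (SE, adjusted p = 0.00343 and 3.36e-05). The other 13 did not pass, among them Dusp1 at -0.07 ± 0.08, Jun at 0.13 ± 0.06 and Btg2 at 0.07 ± 0.10. The part of either list in the Rcan1 difference was not tested.

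The 5 genes whose levels followed Rcan1 most closely between mice of one genotype were Epha4, Cox19, Ckap4, P2rx5 and Adam19. Pearson's r of log2 CPM, taken as deviations from the genotype means over 12 mice, was 0.933, 0.895, 0.881, 0.878 and 0.864 among 9543 genes compared. The highest of so many values on 12 libraries is a description. Without WT mouse 4 these r were 0.927, 0.879, 0.907, 0.944 and 0.843. Between genotypes the 5 differed among themselves: Cox19, a mitochondrial assembly factor, was at a log2 fold change of 0.48 ± 0.06 (SE), and the ephrin receptor gene Epha4 at -0.26 ± 0.08, both past the test, while Ckap4, P2rx5 and Adam19, at 0.10 ± 0.07, 0.23 ± 0.09 and -0.07 ± 0.12, did not pass.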

How the data were processed

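Poly-A RNA of 12 ventricles was sequenced after PCR, and the labels' protocols mention no molecular identifiers. Each deposited value is the raw count of reads on a gene in 1 mouse, not normalized by the authors. Trimming, alignment and counting tools in the submitters' processing notes are fastp 0.22.0, HISAT2 2.1.0 and HTSeq 0.9.1, with the build GRCm39. Annotation release and strand setting: not given in the sources used here.

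Groups and mouse numbers came from the sample titles. Gene names and exon lengths came from GENCODE M21 (GRCm38), which named 21851 of 21959 IDs, and promoter windows from RefSeq (GRCm38.p6). Counts, filtered with filterByExpr and scaled by TMM, were tested with edgeR 4.0.16 in R 4.3.3, with Benjamini-Hochberg adjustment. Alternatives used DESeq2 1.42.0, limma 3.58.1, other scalings and filters, the mouse number as a block, and each mouse left out. The fit was also run on simulated counts, and no result given here rests on that run. No 2 libraries of a group agreed within sampling noise (chi-square per gene 3.11 to 5.62).

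The 10 genes and the lists were chosen with earlier results of these data known. Named genes are the 10, Vps13c, up to 6 called genes of each pathway list by p, up to 3 uncalled ones by mean CPM, and the 5 nearest to Rcan1 with a mean of 5 CPM or more. Ppp3cc and some cell type markers are named in addition to this rule. The further promoter motifs were chosen after the windows were seen. One gene that this rule names is not reported here. Protein sequences were not used here.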

Additional observations from a re-analysis of the deposited data

How the results depend on the processing

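Counts over all genes, 700 higher and 631 lower, ranged from 561 to 760 and from 504 to 672 over 21 alternatives, and those over the 7 lists from 7 to 10 and from 12 to 16. The number of the 10 genes called higher was 0 by DESeq2 and 0 with robust empirical Bayes, against 1, and 0 to 1 when single mice were left out. The number called lower was 0 to 1 when single mice were left out. Camk2d and Nfatc1, both near 0, changed sign without passing the test. Camk2d was at 0.0011 with upper-quartile factors and 0.0036 with a minimum mean of 5 CPM, and Nfatc1 at 0.0024 with that minimum. With single mice left out, Camk2d ran from -0.017 to 0.014 and Nfatc1 from -0.050 to 0.024. The cause was not tested. With a minimum mean of 5 CPM, Nfatc4 was not tested. Mice of the same number did not deviate together over all genes (correlations of -0.04 to 0.0761 over the 6 pairs). The labels do not say whether the numbers pair the mice, and low correlations over all genes cannot decide it. With the replicate block in the edgeR fit, 1 of the 10 genes was higher, Rcan1 at 0.29 (adjusted p = 0.00842). Over all genes 687 were higher and 625 lower. Leaving out mitochondrially encoded genes changed none of the 10 calls. Nfatc4 had the fewest reads of the 10 genes, 37 to 91 per mouse.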
